A study of Homo sapiens with 6 samples.

Results

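The ATP-binding cassette (ABC) family was examined in T24, a cultured line of human bladder carcinoma, with and without a hairpin against MTHFD2, an enzyme of mitochondrial folate metabolism. Members were the genes of the count table with a symbol from ABCA to ABCG followed by a number, leaving out antisense and pseudogene names and the sterol exporters ABCA1 and ABCG1. By that rule 44 of the 54261 genes were members. The shRNA2 group (n = 3 libraries) was T24 infected with a lentivirus carrying hairpin 2 against MTHFD2, and the NC group (n = 3 libraries) was T24 infected with the negative control lentivirus. Both constructs also carried ZsGreen and a puromycin resistance gene, and both populations were stably selected with puromycin. Although the series calls MTHFD2 knocked out, its protocol lists hairpin constructs. These results rest on 1 cell line and 1 hairpin sequence, and the labels do not say whether the replicates were separate cultures, so p-values measure the spread between these libraries, which may be technical.

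ABC proteins share a domain that binds and hydrolyses ATP, and most couple it to membrane spans that move a substrate across a lipid bilayer. Some sit in the plasma membrane and expel drugs, conjugated metabolites or lipids, which is why the family is known in bladder and other cancers for multidrug resistance. Others work on the membranes of mitochondria, lysosomes and peroxisomes. The ABCE and ABCF proteins have no membrane spans and act on ribosomes. In bulk RNA, fewer cells expressing a gene and less RNA per cell cannot be told apart.

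The libraries held 18452506 to 19896302 counts in shRNA2 and 17801990 to 19978392 counts in NC. MTHFD2 fell to 32.4 ± 5.12 CPM (counts scaled to a common library total) in shRNA2, against 185 ± 3.18 CPM in NC (SD, n = 3 each), a log2 fold change of -2.51 ± 0.13 (SE). The epithelial keratins KRT7, KRT8 and KRT18 were abundant in every library, though KRT8 fell to 343 ± 51.7 CPM in shRNA2, against 825 ± 68.5 CPM in NC, and KRT18 to 642 ± 86.8 CPM in shRNA2, against 1192 ± 136 CPM in NC (SD, n = 3 each). The urothelial gene UPK1A rose to 1.38 ± 0.529 CPM in shRNA2, against 0.412 ± 0.0681 CPM in NC (SD, n = 3 each). It had 6, 8 and 9 counts in NC, below the level of 0.5235 CPM used to filter low counts. UPK1A thus entered the test through the shRNA2 libraries. Of 12 epithelial markers 5 were tested, and at an edgeR adjusted p under 0.05 UPK1A alone rose and 2 fell. At an unadjusted edgeR p under 0.05, 4 of the 5 were lower. KRT19, EPCAM, CDH1, GATA3 and UPK2 had at most 11 counts in any library and UPK3A had none. shRNA2 replicate 2 stood apart from the other shRNA2 libraries in a list of 14 fibroblast markers, all of which had counts somewhere and of which 5 of 8 tested rose. Across all genes tested, 9.71% rose and 7.58% fell. Of the 5, DCN had 9, 19 and 8 counts in NC and SPARC had 12, 25 and 10, near or below the filter level. The summed level of the 14 markers was 54.0, 14.7 and 46.1 CPM in shRNA2 replicates 1, 2 and 3, against 9.58, 12.9 and 11.3 CPM in NC replicates 1, 2 and 3. The part of these markers in the results was not tested, but values for shRNA2 replicate 2 alone are given beside the members that passed. Leukocyte markers summed to 5.68 to 7.11 CPM in shRNA2 and 5.82 to 6.21 CPM in NC, with CD3D and NKG7 at 0. Endothelial markers summed to 16.5 to 21.7 CPM in shRNA2 and 17.8 to 21.6 CPM in NC, most of it from ESAM, while CDH5 fell to 0.660 ± 0.201 CPM in shRNA2, against 1.51 ± 0.222 CPM in NC (SD, n = 3 each).

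The promoters of 4 members that the comparison turned on are shown because these genes moved by the largest amounts or in opposite directions. Each runs 5′ to 3′ on the strand of its gene, from 250 bases before to 50 bases after the RefSeq gene start on build GRCh38.p14. Capitals mark a GC box (GGGCGG, or CCGCCC when it lies on the other strand) or a CCAAT box (CCAAT, or ATTGG on the other strand). The windows are chr7:87713246-87713545 (minus strand) for ABCB1, chr11:119148802-119149101 (plus strand) for ABCG4, chr12:39619754-39620053 (minus strand) for ABCD2 and chr7:151227156-151227455 (minus strand) for ABCF2.
ABCB1: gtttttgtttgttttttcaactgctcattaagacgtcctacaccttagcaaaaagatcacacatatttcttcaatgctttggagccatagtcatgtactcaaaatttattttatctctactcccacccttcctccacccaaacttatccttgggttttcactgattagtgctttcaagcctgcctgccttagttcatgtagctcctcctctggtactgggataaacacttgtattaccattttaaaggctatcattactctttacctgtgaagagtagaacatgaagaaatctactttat
ABCG4: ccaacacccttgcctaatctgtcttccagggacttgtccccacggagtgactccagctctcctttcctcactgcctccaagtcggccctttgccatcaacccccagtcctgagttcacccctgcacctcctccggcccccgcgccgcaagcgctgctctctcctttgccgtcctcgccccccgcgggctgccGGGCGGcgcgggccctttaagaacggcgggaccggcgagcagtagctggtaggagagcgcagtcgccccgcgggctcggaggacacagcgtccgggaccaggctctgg
ABCD2: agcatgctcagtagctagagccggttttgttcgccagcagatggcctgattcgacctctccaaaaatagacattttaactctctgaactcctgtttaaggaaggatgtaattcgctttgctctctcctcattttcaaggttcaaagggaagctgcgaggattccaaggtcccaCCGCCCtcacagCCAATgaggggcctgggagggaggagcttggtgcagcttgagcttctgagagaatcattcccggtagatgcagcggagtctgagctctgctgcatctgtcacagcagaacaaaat
ABCF2: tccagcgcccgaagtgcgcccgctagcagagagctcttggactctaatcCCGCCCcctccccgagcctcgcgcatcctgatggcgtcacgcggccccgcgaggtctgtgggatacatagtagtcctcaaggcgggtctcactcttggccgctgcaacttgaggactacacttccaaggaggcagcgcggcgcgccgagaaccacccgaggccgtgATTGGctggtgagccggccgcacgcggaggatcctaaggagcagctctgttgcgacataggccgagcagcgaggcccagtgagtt

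These 4 windows differed in base composition. The ABCB1 window was 37.7% GC and held neither motif. The ABCG4 window was 68.3% GC, with a GC box at position -58 from the gene start. ABCD2, at 50.7% GC, had a GC box at -77 and a CCAAT box at -65, and ABCF2, at 65.3% GC, had a GC box at -201 and a CCAAT box at -35. ABCB1 is known to be transcribed from more than 1 start, and the counts do not show which start was used.

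RefSeq held a promoter for 34 of the 44 members. The GC box was present in 17 of these 34, against 44.6% of all 27305 promoters of the same length, both strands searched. Among the members abundant enough to be tested, 15 of 22 promoters held it (68.2%). No share was taken over the promoters of all tested genes, so this value has no matched background. The median GC content of these 22 promoters was 65.5% (range 37.7 to 79.7%). The 12 promoters of members that were not tested had a median GC content of 49.0% (range 25.0 to 69.0%). The CCAAT box was found in 6 of 34 member promoters (17.6%), against 35.7% of all promoters. The forkhead site TGTTTAC stood in 3 member promoters (8.82%), against 3.41% of all, and the antioxidant response element TGACNNNGC in 7 (20.6%), against 13.6%. Those 3 forkhead sites were at ABCA6, ABCE1 and ABCF1, none of which passed the threshold for a difference between the groups. Among the 22 promoters of tested members, 1 held the forkhead site (4.55%), 6 the antioxidant response element (27.3%) and 5 the CCAAT box (22.7%), again without a matched background. Other motifs searched were TATAAA (11.8% of members against 12.0% of all), CACGTG (8.82% against 7.43%), TGACGTCA (2.94% against 1.98%), TGATGCAA (2.94% against 0.923%) and TGAGTCA (2.94% against 4.92%). The antioxidant response element can overlap the cAMP response element or the AP-1 site, since all can begin with TGAC on either strand. A match in such a window is a string of letters and not a measured binding site.

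Of the 44 members, 26 had enough counts to be tested in edgeR's quasi-likelihood fit across all 13896 genes. Among them 5 rose in shRNA2 (19.2%) and 1 fell (3.85%) at an adjusted p under 0.05, while 20 did not pass. Across all genes tested, 9.71% rose and 7.58% fell, 17.3% in either direction. The 5 were ABCB1, ABCG4, ABCD2, ABCA2 and ABCA5, and the 1 that fell was ABCF2. DESeq2 called the same 5 and 1. In 9 members every shRNA2 library was above every NC library (34.6%), against a background of 20.1% of genes, and in 2 members every shRNA2 library was below, against a background of 19% (39.1% of genes in either direction). The fold change was above 0 in 20 of the 26 (76.9%), against 50.8% of all genes. The median log2 fold change was 0.19 over the tested members and 0.01 over all genes. ABCD2 and ABCG4 entered the test through the shRNA2 libraries, since only 0 and 1 of their 3 NC libraries reached the filter's level of 0.5235 CPM.

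**Figure D1:**
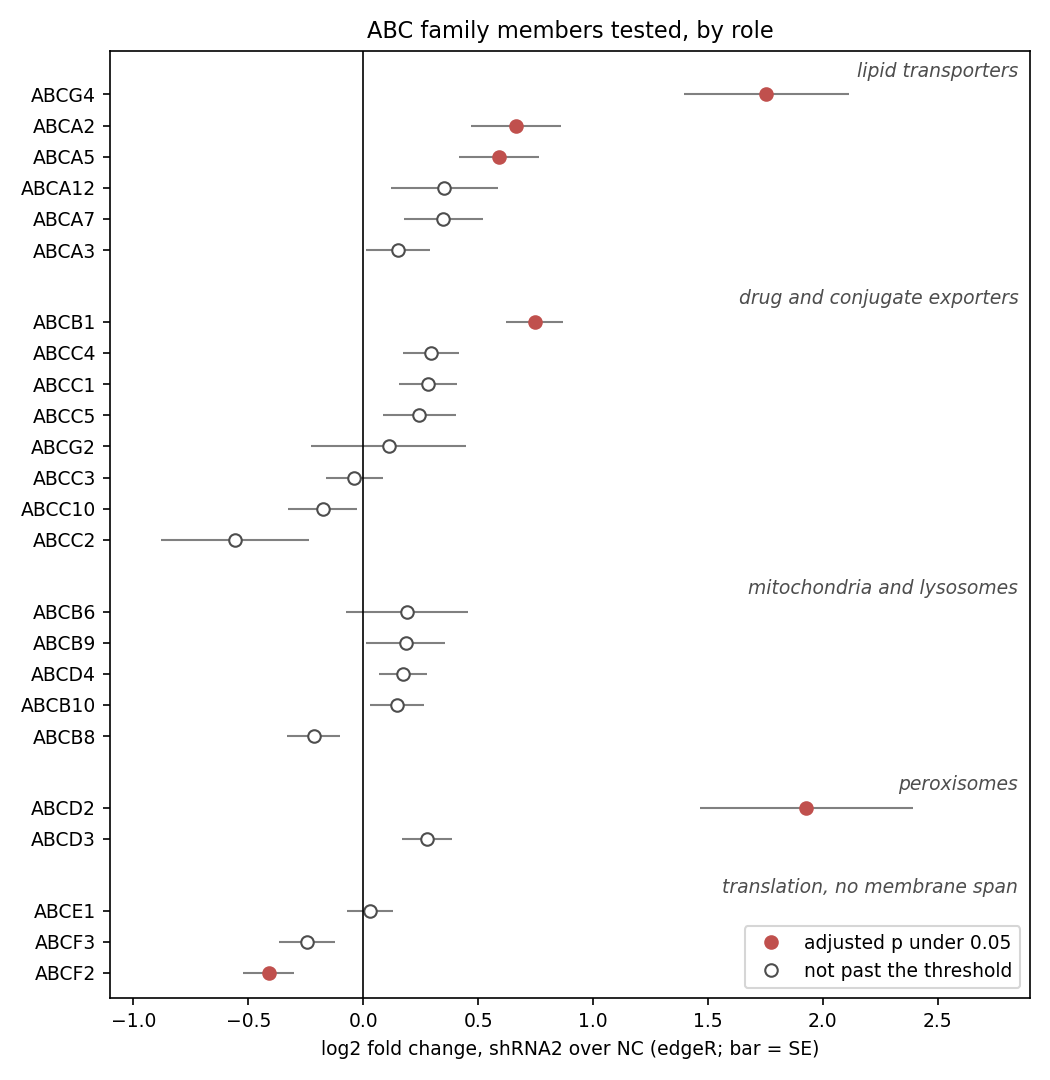
Log2 fold changes (shRNA2 over NC, horizontal axis) of 24 tested ABC members, grouped by role down the page; points are edgeR estimates and bars are SE. ABCD2 at 1.93 and ABCG4 at 1.75 lie farthest to the right, ABCB1 follows at 0.75, and ABCF2 at -0.41 is the only member past the threshold to the left of 0.

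Among the exporters of drugs and conjugates, 1 of 8 tested genes rose and none fell. That gene was ABCB1, which encodes P-glycoprotein, the drug efflux pump of multidrug resistance (chromosome 7, 87503633 to 87713323, minus strand, GENCODE 29 on GRCh38). ABCB1 had 32.3, 38.5 and 31.7 CPM in shRNA2 replicates 1, 2 and 3, against 19.5, 22.1 and 19.5 CPM in NC replicates 1, 2 and 3. Every shRNA2 library was above every NC library. The means were 34.2 ± 3.76 CPM in shRNA2 and 20.4 ± 1.53 CPM in NC (SD, n = 3 each), a 1.68-fold difference and a log2 fold change of 0.75 ± 0.12 (SE), with an edgeR adjusted p of 0.00288. The gene passed under all 15 alternative settings, and leaving out any 1 library gave log2 fold changes of 0.65 to 0.80. With shRNA2 replicate 2 as the only shRNA2 library, where the fibroblast markers were at 14.7 CPM, its log2 fold change was 0.91. That fit has no spread within shRNA2, so only fold changes from it are given.

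ABCC4, an exporter of cyclic nucleotides and prostaglandins, was the most abundant exporter and did not pass. Its levels were 166, 213 and 170 CPM in shRNA2 replicates 1, 2 and 3, against 154, 160 and 134 CPM in NC replicates 1, 2 and 3. The groups did not overlap, but the log2 fold change of 0.29 ± 0.12 (SE) had an edgeR adjusted p of 0.111. ABCC1, the multidrug resistance protein that exports glutathione conjugates, also had no overlap, with 20.1, 17.4 and 18.8 CPM in shRNA2 and 15.3, 14.1 and 16.8 CPM in NC. A log2 fold change of 0.28 ± 0.13 (SE) had an edgeR adjusted p of 0.138, or 0.0491 with trends on GC content and length removed (log2 fold change 0.33). ABCC2, an apical exporter of conjugates known from liver, lay the other way with few reads, at 16, 21 and 13 counts in shRNA2 and 19, 23 and 28 counts in NC (log2 fold change -0.56 ± 0.32, SE, edgeR adjusted p = 0.242).

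The other tested exporters overlapped between the groups. ABCG2, the breast cancer resistance protein, was low, with 40, 21 and 19 counts in shRNA2 against 22, 27 and 21 counts in NC. ABCC5, an exporter of nucleotide analogues, had 56.6, 60.1 and 37.3 CPM in shRNA2 and 42.6, 47.2 and 40.3 CPM in NC, so that shRNA2 replicate 3 lay below all NC libraries. It passed when that library was left out (log2 fold change 0.42, edgeR adjusted p = 0.0266), but not over all 6 libraries (adjusted p = 0.304). ABCC3 and ABCC10 had log2 fold changes of -0.04 and -0.18.

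**Figure D2:**
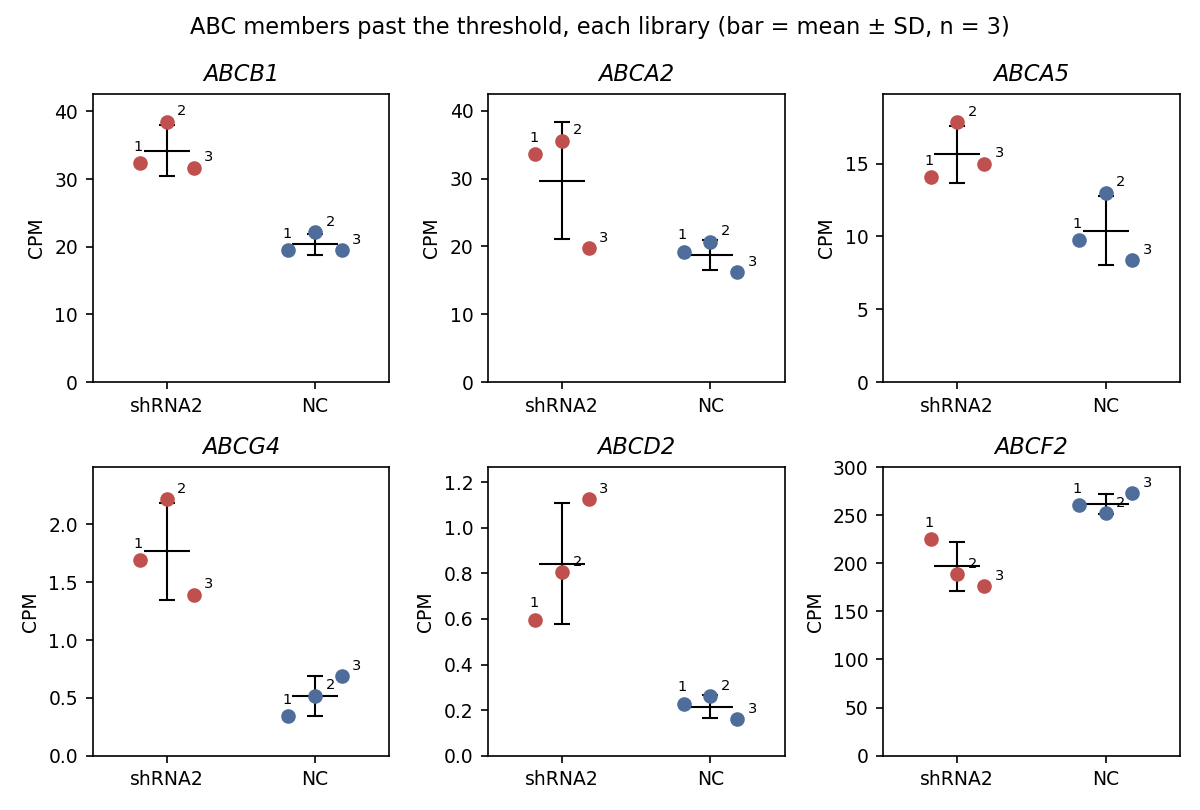
Levels in CPM (vertical axes, from 0) of the 6 ABC members past the threshold, with shRNA2 left of NC in each panel; points are single libraries and bars give mean ± SD (n = 3). ABCB1, ABCG4, ABCD2 and ABCA5 show no overlap between the groups, ABCF2 is lower in every shRNA2 library, and in ABCA2 the shRNA2 replicate 3 value of 19.8 CPM lies below 20.7 CPM in NC replicate 2.

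Among the lipid transporters, 3 of 6 tested members rose and none fell, with a median log2 fold change of 0.47. Over all genes tested, 9.71% rose and the median was 0.01. One of the 3, ABCG4, entered the test through the shRNA2 libraries, so these counts and the median are a description only. ABCG4, known for moving sterols out of cells in brain (chromosome 11, 119149012 to 119162653, plus strand), had 34, 44 and 26 counts in shRNA2 replicates 1, 2 and 3, against 6, 10 and 13 counts in NC replicates 1, 2 and 3. Every shRNA2 library had more reads than every NC library. Its level was 1.77 ± 0.418 CPM in shRNA2 and 0.517 ± 0.174 CPM in NC (SD, n = 3 each), with a log2 fold change of 1.75 ± 0.36 (SE) and an edgeR adjusted p of 0.00803. That call was made under all 15 alternatives, and leaving out any 1 library gave adjusted p values of 0.0131 to 0.0434. In shRNA2 replicate 2 alone the log2 fold change was 2.07.

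ABCA2, an endosomal and lysosomal lipid transporter best known from brain (chromosome 9, 137007227 to 137028922, minus strand), rose to 33.6, 35.6 and 19.8 CPM in shRNA2 replicates 1, 2 and 3, against 19.2, 20.7 and 16.3 CPM in NC replicates 1, 2 and 3. The first 2 shRNA2 libraries were above all NC libraries and the last lay among them. edgeR gave a log2 fold change of 0.66 ± 0.19 (SE) and an adjusted p of 0.0365. This was lost without shRNA2 replicate 1 (adjusted p = 0.118), shRNA2 replicate 2 (0.0869), NC replicate 1 (0.0870) or NC replicate 3 (0.132) in edgeR. The log2 fold change in shRNA2 replicate 2 alone was 0.92.

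ABCA5, a late endosomal and lysosomal transporter linked to cholesterol (chromosome 17, 69244311 to 69327244, minus strand), had 14.1, 17.8 and 15 CPM in shRNA2 replicates 1, 2 and 3, against 9.75, 13.0 and 8.39 CPM in NC replicates 1, 2 and 3. The lowest shRNA2 library was just above the highest NC library. Its rise of 0.59 ± 0.17 (SE) on the log2 scale had an edgeR adjusted p of 0.0363. It lost its call without shRNA2 replicate 2 (adjusted p = 0.0925), NC replicate 1 (0.123) or NC replicate 3 (0.146), and with trends on GC content and length removed from the counts (log2 fold change 0.31, edgeR adjusted p = 0.0991). For shRNA2 replicate 2 alone its log2 fold change was 0.77.

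The 3 lipid transporters that did not pass were ABCA3, ABCA7 and ABCA12. ABCA3, which loads surfactant lipids in lung, was the most abundant ABCA gene per kilobase, and had 46.7, 49.0 and 33.9 CPM in shRNA2 and 40.5, 36.4 and 39.9 CPM in NC. Its log2 fold change was 0.15, with shRNA2 replicate 3 below all NC libraries. ABCA7, a phagocytosis and lipid transport gene, had 10.6, 11.9 and 7.82 CPM in shRNA2 and 7.58, 8.16 and 8.13 CPM in NC, and passed without shRNA2 replicate 3 (log2 fold change 0.50, edgeR adjusted p = 0.0417) but not over all libraries (0.178). ABCA12, the skin lipid transporter, was at 4.25 ± 1.07 CPM in shRNA2 and 3.33 ± 0.523 CPM in NC (SD, n = 3 each). In all 3 genes the groups overlapped.

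Of the 3 peroxisomal transporters, 1 rose and none fell, and the gene that rose entered the test through the shRNA2 libraries. ABCD2, a carrier of very long chain acyl-CoA into peroxisomes (chromosome 12, 39550033 to 39619751, minus strand), had 12, 16 and 21 counts in shRNA2 replicates 1, 2 and 3, against 4, 5 and 3 counts in NC replicates 1, 2 and 3. All shRNA2 libraries were above all NC libraries, at few reads. Its log2 fold change of 1.93 ± 0.46 (SE) was the largest of the tested members (edgeR adjusted p = 0.0165). The call was lost in edgeR without NC replicate 1 (adjusted p = 0.0612) or NC replicate 3 (0.0782). In shRNA2 replicate 2 alone the log2 fold change of ABCD2 was 1.86. A filter of 1 CPM in 3 libraries removed the gene.

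ABCD3, the major peroxisomal membrane protein PMP70, was more abundant than ABCD2, at 8.13 and 0.135 CPM per kilobase in shRNA2. Its levels were 55.5, 62.9 and 66.7 CPM in shRNA2 replicates 1, 2 and 3, against 52.2, 53.1 and 47.4 CPM in NC replicates 1, 2 and 3. The groups did not overlap, with a log2 fold change of 0.28 ± 0.11 (SE, edgeR adjusted p = 0.0995).

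All 6 ABC genes of mitochondria and lysosomes were tested, and none passed in edgeR or in DESeq2, with none at an unadjusted edgeR p under 0.05 either. Their summed level was 193 to 194 CPM in shRNA2 and 184 to 188 CPM in NC. ABCB10, a mitochondrial transporter needed for heme synthesis, was at 56.8 ± 5.93 CPM in shRNA2 and 51.2 ± 4.48 CPM in NC (SD, n = 3 each). ABCB8, another mitochondrial inner membrane transporter, was at 47.5 ± 4.81 CPM in shRNA2 and 55.1 ± 4.82 CPM in NC (SD, n = 3 each). Neither difference passed (edgeR adjusted p = 0.396 and 0.212).

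The lysosomal cobalamin transporter ABCD4 did not overlap between the groups, at 32.9, 33.6 and 31.6 CPM in shRNA2 and 28.3, 29.5 and 29.2 CPM in NC (log2 fold change 0.17 ± 0.10, SE, edgeR adjusted p = 0.265). The porphyrin transporter ABCB6 and the lysosomal peptide transporter ABCB9 each had a log2 fold change of 0.19, with overlapping groups. An annotated gene on the same strand covers 54.7% of ABCB6 exon bases, and genes on the opposite strand share exons with ABCB9. The strand setting of the counting is not given in the sources used here, so the counts of both are uncertain.

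Of the 3 tested ABC proteins of translation, 1 fell and none rose. ABCF2, a cytosolic protein with a pair of ATP-binding cassettes (chromosome 7, 151212490 to 151227230, minus strand), fell to 225, 189 and 176 CPM in shRNA2 replicates 1, 2 and 3, against 260, 252 and 273 CPM in NC replicates 1, 2 and 3. Every shRNA2 library was below every NC library. The means were 197 ± 25.2 CPM in shRNA2 and 262 ± 10.4 CPM in NC (SD, n = 3 each), with a log2 fold change of -0.41 ± 0.11 (SE, edgeR adjusted p = 0.0257). Leaving out shRNA2 replicate 2 (adjusted p = 0.0530), NC replicate 1 (0.0853), NC replicate 2 (0.0511) or NC replicate 3 (0.0919) ended the edgeR call. In shRNA2 replicate 2 alone the log2 fold change was -0.48. An annotated read-through gene on the same strand covers 45.8% of ABCF2 exon bases, and reads there cannot be told apart.

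ABCE1, which splits ribosomes after translation ends, was at 142 ± 10.1 CPM in shRNA2 and 139 ± 9.29 CPM in NC (SD, n = 3 each), a log2 fold change of 0.03 ± 0.10 (SE, edgeR adjusted p = 0.862). ABCF3 was at 53.2, 39.7 and 42.6 CPM in shRNA2 and 52.7, 52.9 and 55.0 CPM in NC. The first shRNA2 library lay among the NC libraries, and ABCF3 passed without it (log2 fold change -0.38, edgeR adjusted p = 0.0379) but not with all libraries (0.182). ABCF1 was listed at 0 in all 6 libraries. So were 128 of 171 protein-coding genes of the chromosome 6 region around the major histocompatibility complex (74.9%), against 20.4% of protein-coding genes on all chromosomes. Among those at 0 was the tubulin gene TUBB, so the 0 of ABCF1 is given as a listing and not as a level.

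**Figure D3:**
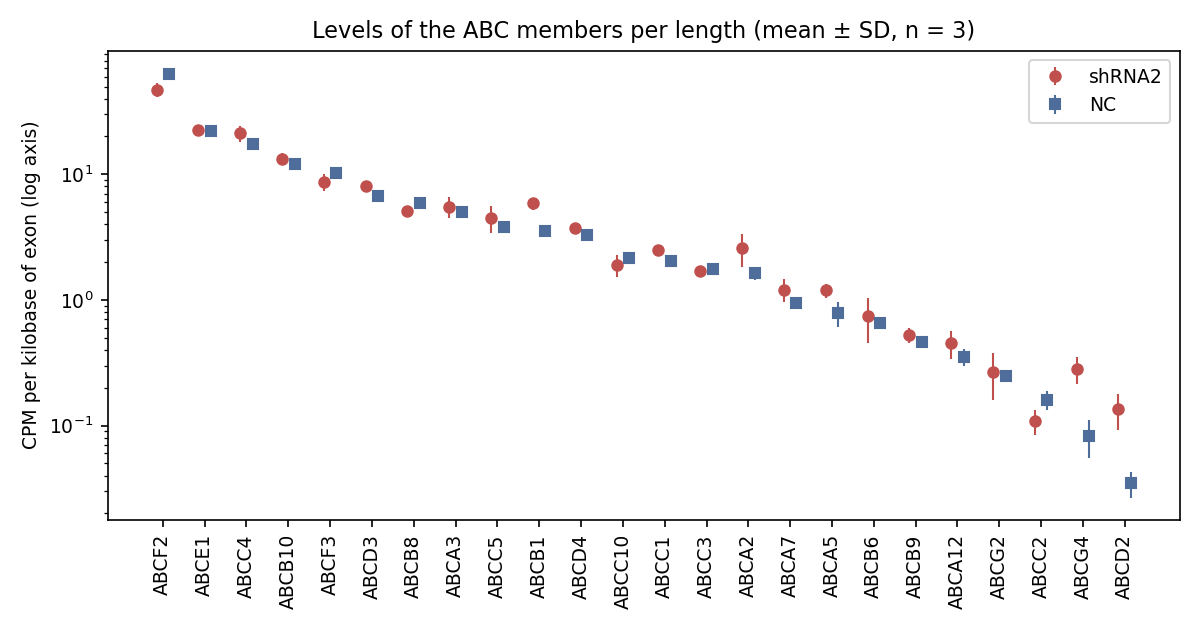
Levels of 24 tested ABC members in CPM per kilobase of exon (log axis) with shRNA2 and NC side by side; points are means and bars SD (n = 3). ABCF2 is highest in both groups, ABCC2 is lowest in shRNA2 and ABCD2 is lowest in NC, and among those shown only the low members ABCD2 and ABCG4 are separated by more than 3-fold.

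Levels were divided by the merged length of all annotated exons of each gene. That length can exceed the transcripts expressed, to a different degree in each gene, so comparisons between genes are approximate. ABCF2 was the most abundant member at 47.1 ± 6.04 CPM per kilobase in shRNA2 and 62.7 ± 2.5 CPM per kilobase in NC (SD, n = 3 each). ABCE1 followed at 22.7 ± 1.61 CPM per kilobase in shRNA2 and 22.3 ± 1.48 CPM per kilobase in NC, and ABCC4 at 21.2 ± 3.03 CPM per kilobase in shRNA2 and 17.3 ± 1.60 CPM per kilobase in NC. ABCE1 and ABCC4 did not differ beyond their spread in shRNA2, whereas in NC their means lay farther apart than the SDs. ABCB1 was at 5.89 ± 0.648 CPM per kilobase in shRNA2 and 3.51 ± 0.264 CPM per kilobase in NC. The lowest tested genes in NC were ABCD2, at 0.135 ± 0.0426 CPM per kilobase in shRNA2 and 0.0346 ± 0.00824 CPM per kilobase in NC, and ABCG4, at 0.282 ± 0.0666 CPM per kilobase in shRNA2 and 0.0825 ± 0.0278 CPM per kilobase in NC. ABCF2 alone made up 20.5, 17.0 and 17.5% of the counts of the 44 members in shRNA2, against 24.7, 24 and 26.8% in NC.

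The remaining 18 members had too few counts to be tested. No counts were listed in any library for 8 of them, namely ABCB5, the bile salt exporter ABCB11, ABCC6, ABCC8, ABCC12, ABCC13, ABCF1 and ABCG5. Apart from ABCF1 and ABCC6, a count of 0 allows a level of up to 0.150 to 0.169 CPM per library (3 counts of the library total, counting error only). Both regulators of potassium channels, ABCC8 and ABCC9, were among the 18, with ABCC9 at 0 to 3 counts. The other 9 had at most 11 counts in a library. ABCA8 had 2, 1 and 2 counts in shRNA2 and none in NC, and ABCB4, the phosphatidylcholine transporter of bile, had 3, 2 and 2 counts in shRNA2 against 1, 0 and 0 counts in NC. ABCA13 had 0 counts in shRNA2 and 1 count in each NC library. These counts are too few for a comparison.

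Members with few or no counts lay beside members with many in the genome. ABCB4 lies 23198 bases from ABCB1 on the same strand of chromosome 7, and the pair summed to 8 and 3141 counts over all 6 libraries. In the chromosome 17 cluster, ABCA8, ABCA9, ABCA6, ABCA10 and ABCA5 follow each other on the minus strand with 5, 1, 8, 45 and 1496 counts. ABCA5, the only tested gene of that cluster, shares 318 exon bases with ABCA10. On chromosome 16, ABCC1 with 1955 counts lies 5854 bases from ABCC6 with 0. ABCC6 has near-identical pseudogenes, and the rows of ABCC6P1 and ABCC6P2 were also at 0. How the counting treated reads shared between them is not given, so the 0 of ABCC6 is a listing and not a level. ABCB8 and ABCF2 lie 164708 bases apart on opposite strands of chromosome 7.

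**Figure D4:**
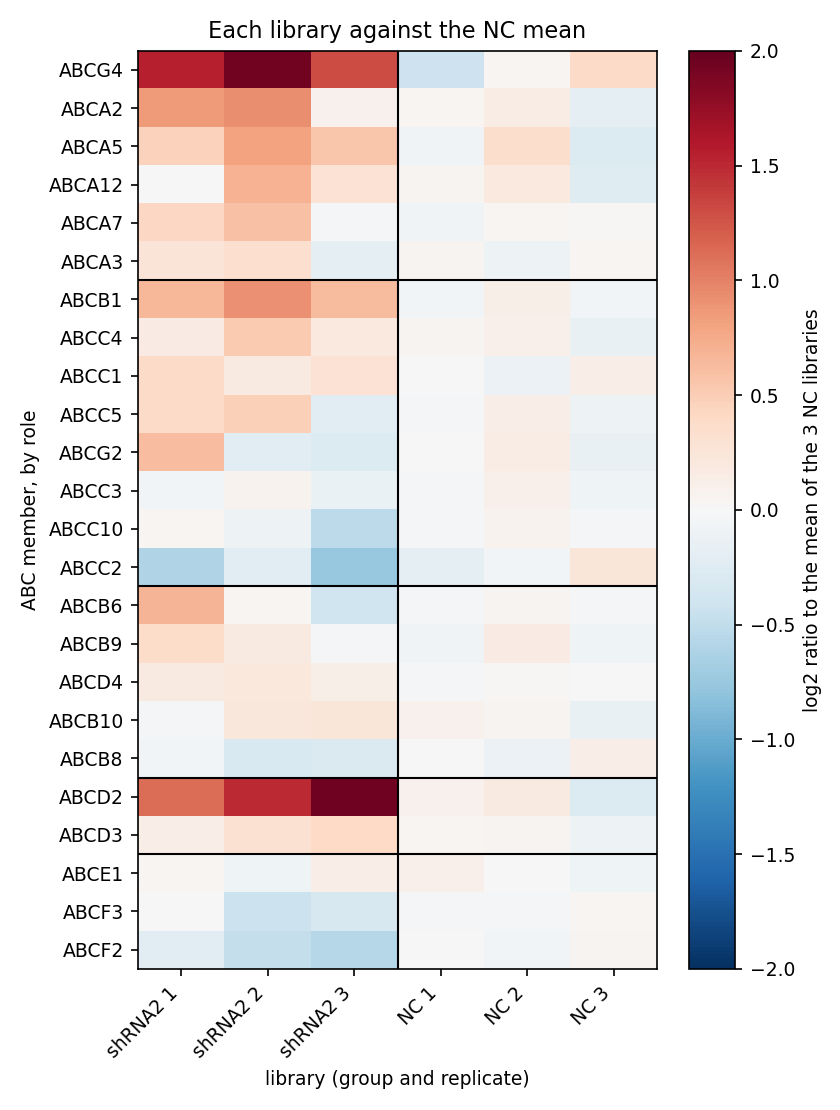
Log2 ratio of each library (columns, shRNA2 left of NC) to the mean of the 3 NC libraries for 24 tested ABC members (rows, by role); color gives the ratio. ABCB1, ABCG4 and ABCD2 are above the NC mean in every shRNA2 library, and the median over all 26 tested members is 0.22, 0.22 and 0.07 in shRNA2 replicates 1, 2 and 3.

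The median over the tested members differed between the shRNA2 libraries. It is a description only, since no set was tested and ABCD2 and ABCG4 entered through the shRNA2 libraries. The median log2 ratio of the 26 tested members to the NC mean was 0.22, 0.22 and 0.07 in shRNA2 replicates 1, 2 and 3, against -0.01, 0.05 and -0.05 in NC replicates 1, 2 and 3. Relative to shRNA2 replicates 1 and 2, replicate 3 was lower by 0.80 on the log2 scale for ABCA2, 0.76 for ABCB6, 0.64 for ABCC5 and 0.52 for ABCA7, and higher by 0.63 for ABCD2. In all, 20 of 26 members were lower in that library than in the mean of the other shRNA2 libraries, against 6307 of 12553 genes, and 15 of 26 members were lower in NC replicate 3 than in the mean of the other NC libraries. The members that were lower tended to be GC-rich. Across the 26 members, which share the same libraries, the deviation of shRNA2 replicate 3 and the GC content of the longest transcript had a Pearson r of -0.66 (Spearman -0.646), against -0.0955 (Spearman -0.107) across 12553 genes. For NC replicate 3 the same quantities were 0.521 (Spearman 0.553) in the members and 0.299 (Spearman 0.372) across genes. The part of base composition in the results was not tested beyond the fit with its trend removed, in which the calls of ABCB1, ABCG4, ABCD2, ABCA2 and ABCF2 were kept and that of ABCA5 was lost.

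**Figure D5:**
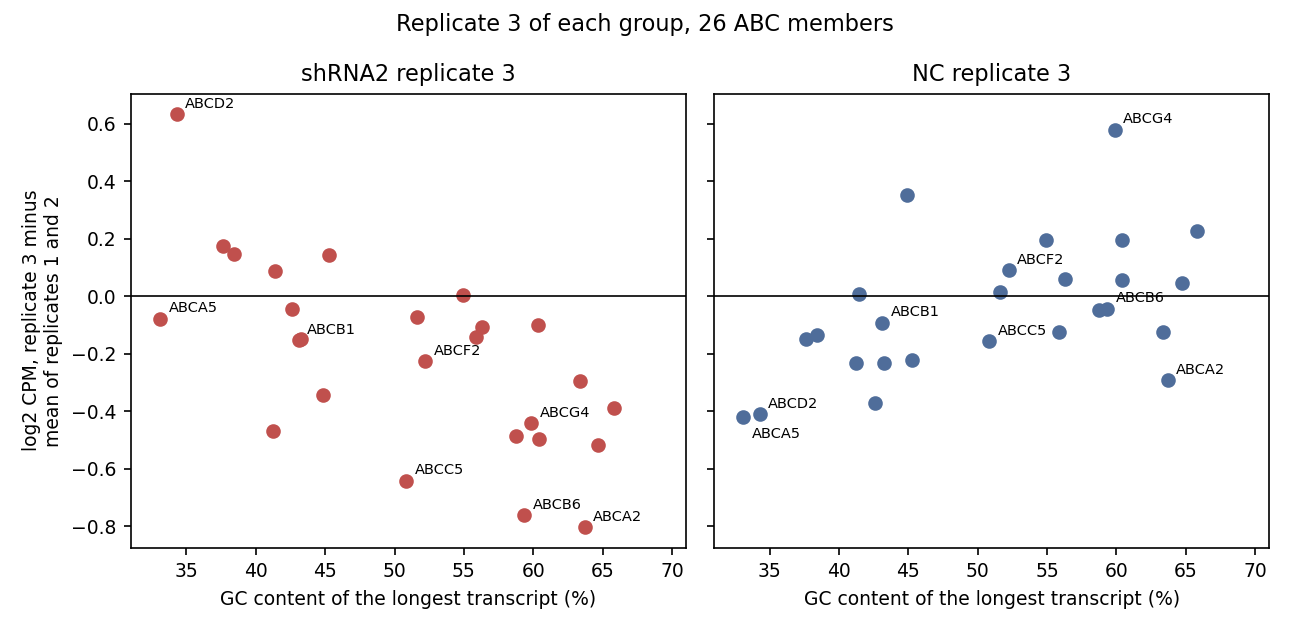
Deviation of replicate 3 from the mean of replicates 1 and 2 (log2 CPM, vertical axis) against GC content of the longest transcript (%, horizontal axis) for 26 ABC members, with shRNA2 left of NC. GC-rich members such as ABCA2 lie lowest in shRNA2 (Pearson r = -0.66), while the slope in NC runs the other way (Pearson r = 0.521).

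ABC family genes that do not carry an ABC symbol were looked up as well. TAP2, a subunit of the peptide transporter for antigen presentation, had 51, 26 and 57 counts in shRNA2 and 50, 55 and 48 counts in NC (log2 fold change -0.26 ± 0.29, SE, edgeR adjusted p = 0.561). Its partner TAP1 was listed at 0 throughout. Both TAP genes lie in the same chromosome 6 region as ABCF1, where most protein-coding genes were listed at 0, so the level of TAP2 is uncertain. The chloride channel gene CFTR had at most 1 count in a library.

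Genes that work with the ABC proteins were taken from 7 lists of partners and regulators. With the ABC genes under other symbols added, 118 such genes were tested, of which 12 rose and 8 fell. The shares over all genes tested were 9.71% higher and 7.58% lower. Calls are given below gene by gene, and no list was tested as a set. Among 24 tested partners in iron-sulfur and heme synthesis, 1 rose and 3 fell. IBA57, an assembly factor of mitochondrial iron-sulfur proteins, fell to 9.10 ± 1.24 CPM in shRNA2, against 16.3 ± 1.44 CPM in NC (SD, n = 3 each; log2 fold change -0.84 ± 0.15, SE, edgeR adjusted p = 0.00360). GFER, a sulfhydryl oxidase of the intermembrane space, fell by 0.53 on the log2 scale, ALAS1, the first enzyme of heme synthesis, fell by 0.41, and the later heme enzyme CPOX rose by 0.39. The ABCB8 and ABCB10 genes of the same organelle did not pass.

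Among 18 tested genes of peroxisomal import and fatty acid oxidation, 4 rose and 1 fell. EHHADH, the bifunctional enzyme of peroxisomal beta oxidation, rose to 11.3 ± 0.993 CPM in shRNA2, against 6.47 ± 1.42 CPM in NC (SD, n = 3 each; log2 fold change 0.81 ± 0.18, SE, edgeR adjusted p = 0.0118). SLC27A2, which activates very long chain fatty acids, rose by 0.70, while PEX16, needed for peroxisome formation, fell by 0.42 on the log2 scale. Of the peroxisomal transporters, ABCD2 had a log2 fold change of 1.93 but entered the test through the shRNA2 libraries. The more abundant ABCD3 did not pass (log2 fold change 0.28, edgeR adjusted p = 0.0995). A link between these genes and the transporters was not tested.

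Of 10 tested cobalamin genes, 2 rose and none fell, with 2 lower at an unadjusted edgeR p under 0.05 and 1 lower by DESeq2. TCN2, the cobalamin carrier of blood, rose to 4.65 ± 1.37 CPM in shRNA2, against 1.68 ± 0.303 CPM in NC (SD, n = 3 each; log2 fold change 1.46 ± 0.27, SE, edgeR adjusted p = 0.00509). LMBRD1, the lysosomal membrane protein that works with ABCD4, rose by 0.47 on the log2 scale.

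Among 20 tested genes of ribosome recycling and the GCN2 pathway, none rose in edgeR or DESeq2, or at an unadjusted edgeR p under 0.05, and 2 fell. EIF3J, an initiation factor subunit that acts in recycling, fell to 141 ± 16.4 CPM in shRNA2, against 200 ± 4.29 CPM in NC (SD, n = 3 each; log2 fold change -0.51 ± 0.11, SE, edgeR adjusted p = 0.00883). ETF1, the release factor that recognises stop codons and works just before ABCE1, fell to 336 ± 12.3 CPM in shRNA2, against 441 ± 1.5 CPM in NC (SD, n = 3 each; log2 fold change -0.39 ± 0.09, SE, edgeR adjusted p = 0.0165). The median log2 fold change of the 20 was -0.17.

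For the conjugate exporters, 1 of 17 tested conjugation genes rose. It was GSTA4, a glutathione transferase for lipid peroxidation products, with 45, 87 and 78 counts in shRNA2 and 22, 18 and 20 counts in NC (log2 fold change 1.73 ± 0.31, SE, edgeR adjusted p = 0.00421). No gene of this list fell in edgeR or DESeq2, with 3 lower at an unadjusted edgeR p under 0.05. Of 19 tested factors known to drive ABC genes, 3 rose and 1 fell. FOXO1, a forkhead factor known to act on ABCB1 in other cells, rose to 24.2 ± 5.01 CPM in shRNA2, against 11.8 ± 0.467 CPM in NC (SD, n = 3 each; log2 fold change 1.03 ± 0.16, SE, edgeR adjusted p = 0.00202). PPARA, a receptor for fatty acids, rose by 0.86 and ARNT by 0.43, while EPAS1, a hypoxia factor, fell by 0.54 on the log2 scale. Among 9 tested uptake carriers, the anion carrier SLCO2B1 rose by 0.45 and the folate carrier SLC19A1 fell by 0.58 on the log2 scale.

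Of the 18 partner genes named, 6 kept their edgeR call whichever library was left out, namely EHHADH, EIF3J, FOXO1, GSTA4, IBA57 and TCN2. The other 12 lost it without NC replicate 3, with adjusted p values of 0.0505 to 0.171, and 10 of these also without at least 1 further library. Calls over all genes fell from 2402 to 986 without NC replicate 3, so this loss is not particular to the 12. PEX16 and LMBRD1 lost it with trends on GC content and length removed as well (edgeR adjusted p = 0.118 and 0.162).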

How the data were processed

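RNA was sequenced from 6 libraries of T24 cells, 3 shRNA2 and 3 NC. The authors deposited raw counts per gene, named by symbol. HISAT2 2.0.4 and the build GRCh38 are named in the submitters' processing notes. Which tool, annotation and strand setting made the counts was not given in the sources used here. From these counts, edgeR 4.0.16 in R 4.3.3 fitted all 6 libraries with TMM scaling, after filterByExpr, using the robust quasi-likelihood test; p-values of 13896 genes were adjusted by Benjamini-Hochberg and read at 0.05. Dividing a log2 fold change by the root of its F statistic gave its SE. Printed CPM levels are TMM-scaled, whereas the filter level and the limit for a count of 0 use library totals. Lengths, GC content and gene positions came from GENCODE 29 on GRCh38, promoters from RefSeq on GRCh38.p14.

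Members and gene lists were chosen with earlier results of these data known. Named were all members past the threshold, members without overlap between groups, the 2 most abundant of each role where none passed, the 3 most abundant per kilobase, and up to 4 changed genes per partner list. FDX2 and MMUT had no row under those symbols. Alternatives were DESeq2 1.42.0, other scaling and filters, a threshold of 0.01, trends on GC content and length removed by lowess (span 0.3) as edgeR offsets, a replicate block, each library left out, and shRNA2 replicate 2 alone. No 2 libraries agreed within sampling noise. Same-numbered libraries deviated from their group means with correlations of -0.0204, 0.297 and 0.353. Scripts were tested on simulated counts. Values of some genes are not reported here, and figures that label genes leave them out, while counts over members include them.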

Additional observations from a re-analysis of the deposited data

How the results depend on the processing

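The main counts were 5 members higher and 1 lower, 2402 genes in all, 12 partner genes higher and 8 lower, and a median log2 fold change of 0.188 over the members. Of the named genes, 4 members changed the sign of their log2 fold change under some alternatives, and they passed in none. Leaving out 1 library gave -0.024 to 0.081 for ABCE1, -0.28 to 0.27 for ABCG2, -0.16 to 0.41 for ABCB6 and -0.096 to 0.0065 for ABCC3. With trends on GC content and length removed ABCE1 was at -0.11, and with the replicate block as well ABCE1 was at -0.12 and ABCG2 at -0.011. In shRNA2 replicate 2 alone ABCE1 was at -0.087, ABCG2 at -0.25 and ABCC3 at 0.060. At a threshold of 0.01, 2 members were higher and 0 lower (1 lower at an unadjusted edgeR p under 0.05, and 1 by DESeq2 at 0.05), with 749 genes, and 3 partner genes higher and 2 lower. Removing trends on GC content and length gave 17 partner genes lower. With shRNA2 replicate 2 as the only shRNA2 library, assumed to vary like NC, 2 members and 28 partner genes were lower and 4432 genes passed.

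Leaving out 1 library gave 2 to 7 members higher and 0 to 2 lower, 986 to 2645 genes, 4 to 13 partner genes higher and 2 to 14 lower, and medians of 0.165 to 0.277, the last without shRNA2 replicate 3. All genes called were 1003 without NC replicate 1, 986 without NC replicate 3 and 1469 without shRNA2 replicate 2.

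The labels do not say whether libraries with the same replicate number were made together. Deviations of shRNA2 replicate 2 correlated best with NC replicate 2 (0.297, against 0.165 and -0.405 with NC replicates 1 and 3). Those of shRNA2 replicate 3 correlated best with NC replicate 3 (0.353, against -0.143 and -0.259 with NC replicates 1 and 2). For shRNA2 replicate 1 all values were small, at -0.0204, -0.0341 and 0.0477 with NC replicates 1, 2 and 3. Whether the replicates were paired was not settled. The replicate block gave 2 members lower, 5062 genes, and 23 partner genes higher and 27 lower. It added ABCC4, ABCD3 and ABCF3 (edgeR adjusted p = 0.00652, 0.0219 and 0.0404). The replicate block with trends on GC content and length removed gave 9 members higher, 5612 genes, and 28 partner genes higher and 32 lower. The causes of these differences were not tested. Without TMM the NC levels per kilobase of ABCD4 and ABCF3 moved by more than their SD. Depth limits ABCD2, ABCG4, ABCG2 and ABCC2, with at most 44 reads in any library.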
